A study of Mus musculus with 12 samples.

Results

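The 36 genes described here encode the steps by which a cell takes up glucose, breaks it down to pyruvate and disposes of the pyruvate: glucose and lactate transporters, the glycolytic enzymes, the enzymes that set the level of fructose 2,6-bisphosphate, lactate dehydrogenase, phosphoglucomutase, the mitochondrial pyruvate carrier, the pyruvate dehydrogenase complex and its kinases. They were chosen by symbol for these roles, with earlier results of these data known, and are 36 of the 55487 features in the deposited table. Gaps between members and all genes are therefore descriptions, without a set test. Of the 36, 32 passed a filter on low values (4 or more samples with a log2 CPM over 0, where CPM is reads per mega-read of library) and stood among the 12364 genes tested. Eno2, Pfkfb2, Pfkfb4 and Ldhb did not pass it and are described by their levels; only an alternative fit with no filter took in all 36. A second row under the name Aldoa (ENSMUSG00000114515), at 0 to 0.771 CPM, was left out.

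Natural killer (NK) cells, lymphocytes that kill target cells and secrete cytokines, were profiled by RNA sequencing in 12 samples. All came from mice of strain B6.129S4-Ifngtm3.1Lky/J, labelled mut/mut, whose interferon gamma gene reports its activity through yellow fluorescent protein (YFP), and all were primed with the cytokine IL-15 (HD IL-15 in the titles, which do not spell out HD), so no sample is unprimed or free of the reporter. The 3 groups of 4 samples were unstimulated cells, cells without reporter signal (YFP-) and cells with it (YFP+). The last 2 were taken after 6 h with an antibody against the receptor NK1.1. For the unstimulated samples the labels used here give no time and no split by reporter. The part of culture time and of the sort in differences from unstimulated cells was not tested. Each group held samples labelled f2, m2, m3 and m4, and values are given in that order. The labels do not say whether samples are separate mice, so the p-values measure the spread between these samples, which may be technical.

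Glycolysis splits glucose into pyruvate in the cytosol and yields a little ATP quickly, along with intermediates for biosynthesis. Pyruvate is then either reduced to lactate by lactate dehydrogenase and exported, or carried into mitochondria and turned into acetyl-CoA by the pyruvate dehydrogenase complex, which the pyruvate dehydrogenase kinases switch off by phosphorylation. In NK cells, priming with cytokines such as IL-15 is known to raise glycolysis, and interferon gamma production after receptor engagement is known to draw on glucose metabolism. Several glycolytic genes are textbook targets of the hypoxia-inducible factors and of MYC.

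Library totals ran from 32.1 to 54.2 M (mega) reads, and 3 reads, the smallest level that could be shown, stood for 0.0553 to 0.0933 CPM. Ifng ranged from 3.66 to 4.19 CPM in unstimulated cells, from 36.6 to 54.5 in YFP- and from 304 to 343 in YFP+, in the order of the sort. All 8 NK markers examined reached 1 CPM in each group, but levels differed between groups. Klrb1c spanned 290 to 327 CPM (unstimulated), 57.6 to 86.6 (YFP-) and 3.70 to 8.97 (YFP+). Eomes, with groups listed likewise, spanned 102 to 115, 57.5 to 84.3 and 38.3 to 43.0 CPM. Ncr1 (244 to 249, 182 to 245 and 105 to 138) and Klrd1 (358 to 415, 244 to 289 and 150 to 178) were also lower in YFP+ than in unstimulated cells. So were Gzma (7843 to 9334, 3769 to 5124 and 3875 to 4773) and Itga2 (5.27 to 8.91, 3.29 to 5.13 and 1.80 to 4.25). Klrk1 (183 to 195, 236 to 322 and 210 to 274) and Prf1 (1696 to 2976, 2847 to 4474 and 2289 to 5986) did not fall. The NK sums were 10816.4 to 13536.8, 7516.7 to 10198.5 and 7131.8 to 11384.4 CPM. Of the markers of other cells, Cd4, Cd8a, Cd8b1, Ms4a1, Csf1r, Lyz2 and Adgre1 stayed under 1 CPM in all samples, and S100a9 and Retnlg were at 0. Summed over their lists in unstimulated, YFP- and YFP+ cells, macrophage and monocyte markers reached 53.0 to 60.2, 27.4 to 44.4 and 14.7 to 24.0 CPM (mostly Cd68), dendritic markers 84.4 to 98.2, 40.6 to 53.0 and 15.7 to 25.7 (mostly H2-Ab1), T cell markers 53.1 to 113, 74.9 to 107 and 72.2 to 125 (Trac, Cd3g, Cd3d and Cd6), B cell markers 131 to 189, 174 to 324 and 57.1 to 168 (Ighm), ILC1 and ILC2 markers 60.0 to 67.6, 62.5 to 115 and 23.1 to 59.1 (mostly Gata3), neutrophil markers at most 1.82, 0.466 and 0.166, and erythroid and platelet markers at most 0.527, 0.184 and 0.286. Their part in the results was not tested. The YFP+ samples m3 and m4 stood apart: their log2 CPM correlated with YFP+ f2 and m2 at r of 0.938 to 0.972, against 0.982 between f2 and m2 and 0.972 between m3 and m4. Ribosomal RNA-like features took 29.8 and 23.1% of reads in YFP+ m3 and m4, against 13.7 and 16.3% in YFP+ f2 and m2. Library totals were 36.2 and 32.1 M reads in YFP+ m3 and m4, against 48.9 and 54.2 M in YFP+ f2 and m2. The part of either in this split was not tested. Relative to f2 and m2 of that group, the median difference of m3 and m4 was -0.58 on the log2 scale over the 32 members and -0.17 over all genes tested, and 8 members (25.0%) lay more than 1 below against 11.8% of all genes. Where leaving them out made or ended a member's call in a comparison with YFP+ cells, the value without them is given as well.

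The members as a group made up a larger part of the RNA of unstimulated cells than of stimulated cells. Their summed reads made up 3.52, 3.43, 3.45 and 2.83% of all reads in unstimulated samples, 1.25, 1.35, 1.09 and 0.98% in YFP- samples, and 1.13, 1.03, 0.740 and 0.724% in YFP+ samples. Both stimulated groups lay below every unstimulated sample, and the 2 stimulated groups overlapped each other. Ribosomal RNA-like features took 27.4 to 35.3% of reads in unstimulated cells, 15.9 to 30.3% in YFP- cells and 13.7 to 29.8% in YFP+ cells. With them left out of the totals, the members' share was 4.38 to 5.08%, 1.22 to 1.61% and 0.941 to 1.31%, so the order of the groups was the same. Per kb of merged exon, the most abundant members in unstimulated cells were Aldoa (mean 1907 CPM per kb), Gapdh (1530) and Eno1 (1490). Eno1 had 5379 bases of merged exon but 2027 in its longest transcript, so this ranking depends on the length used. In bulk samples, fewer cells of a type and less RNA per cell cannot be told apart.

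**Figure D1:**
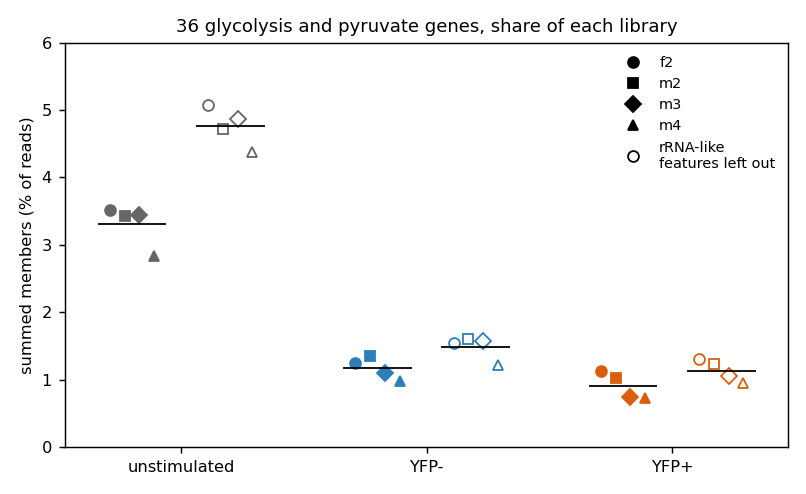
Summed reads of the 36 glycolysis and pyruvate genes as a percentage of all reads (filled symbols) and of reads without rRNA-like features (open symbols), by group; each symbol is 1 sample, its shape gives the label, and bars are group means. All 4 unstimulated samples, from 2.83 to 3.52%, sit above the 8 stimulated samples, which reach at most 1.35%.

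Glycolytic genes were lower in both stimulated groups than in unstimulated cells. In YFP- cells against unstimulated cells, 18 of the 32 members tested fell and 5 rose at a limma adjusted p under 0.05 (Benjamini-Hochberg over all 12364 genes), 71.9% in all; of all genes tested, 20.9% fell and 30.2% rose, 51.1% in all. Their 2 groups of 4 samples did not overlap for 17 lower and 5 higher members, against 21.7% and 30.9% of all genes (52.7% in either direction). The median log2 change of the members was -0.79, beside 0.14 for all genes tested.

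In YFP+ cells against unstimulated cells, again 18 members fell and 5 rose, beside 33.3% and 27.5% of all genes tested (60.8% in either direction). The groups did not overlap for 18 lower and 4 higher members, against 30.8% and 24.0% of all genes (54.7% in either direction). The median log2 change was -1.29 for the members and -0.03 for all genes. Without YFP+ m3 and m4 the counts were 18 lower and 8 higher, beside 3816 lower and 3902 higher of all 12364 genes. In all, 17 members fell and 5 rose in both stimulated groups, beside 2458 and 2923 of the 12364 genes, which share the unstimulated samples between the 2 comparisons.

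Between the 2 stimulated groups fewer members were called. In YFP+ against YFP- cells 6 members fell (Slc2a3, Slc2a6, Hk1, Hk3, Gpi1 and Pgk1) and 2 rose (Hk2 and Slc16a1), beside 18.5% lower and 3.28% higher among all genes; the members' share of calls was 25.0%, beside 21.8% of all genes. The groups did not overlap for the same 8 members, beside 17.8% of all genes lower and 4.31% higher (22.1% in either direction). The median log2 change was -0.41 for the members and -0.19 for all genes, a gap of -0.23. Without YFP+ m3 and m4 this gap was -0.0013, and 4 members fell (Slc2a6, Hk3, Gpi1 and Pdk1) and 0 rose at the same limma threshold. These 4 were 12.5% of the members, beside 15.7% of all genes in the same setting. With totals that omit rRNA-like features 14 members (43.8%) were called beside 25.2% of all genes, and with TMM scaling 5 (15.6%) beside 21.8%, so whether the members' share lay above or below that of all genes depends on the setting.

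**Figure D2:**
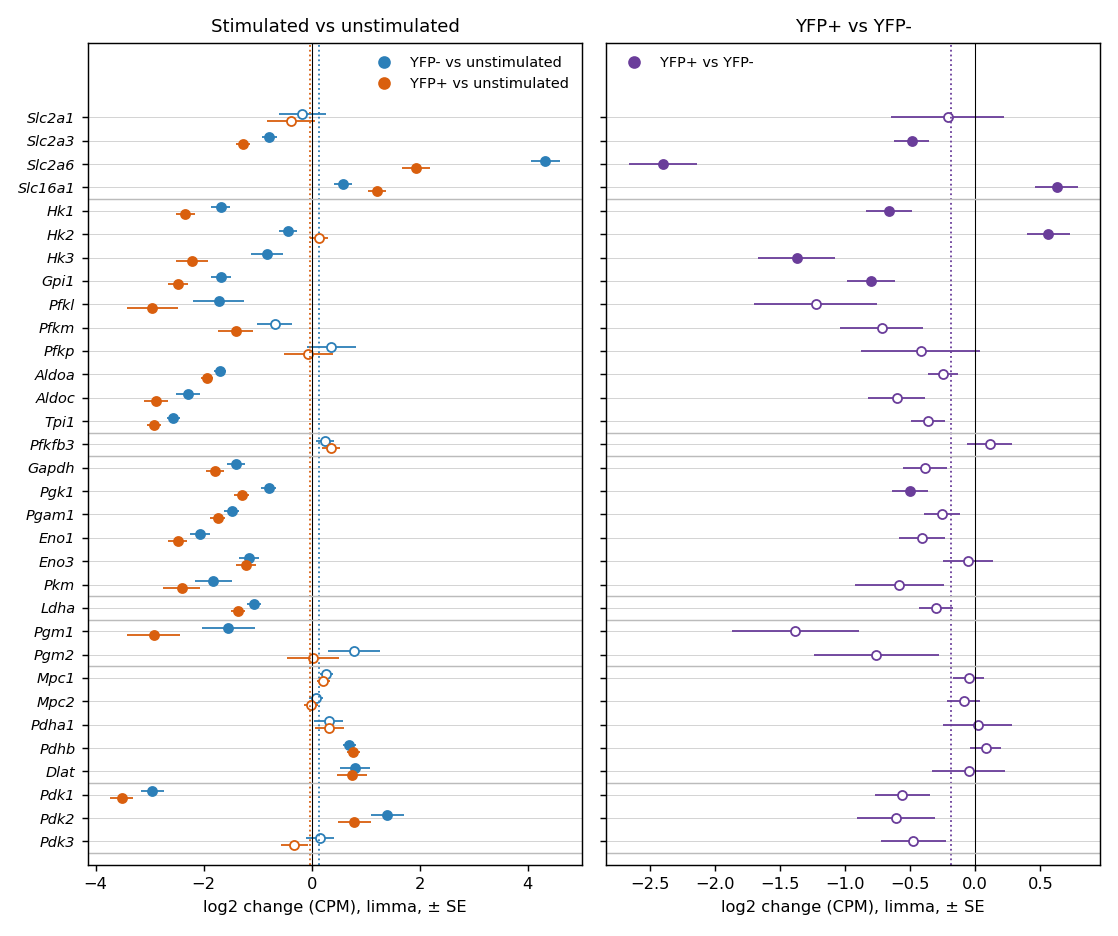
Log2 change in CPM of the 32 members tested, with the standard error from limma as bars; filled points passed an adjusted p of 0.05 and open points did not, horizontal lines separate roles, and dotted lines are medians of all genes tested. On the left most glycolytic enzymes from Hk1 to Ldha lie left of 0 in both stimulated groups, while Slc2a6 lies at 4.33 and 1.93; on the right Slc2a6 is the lowest at -2.40.

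**Figure D3:**
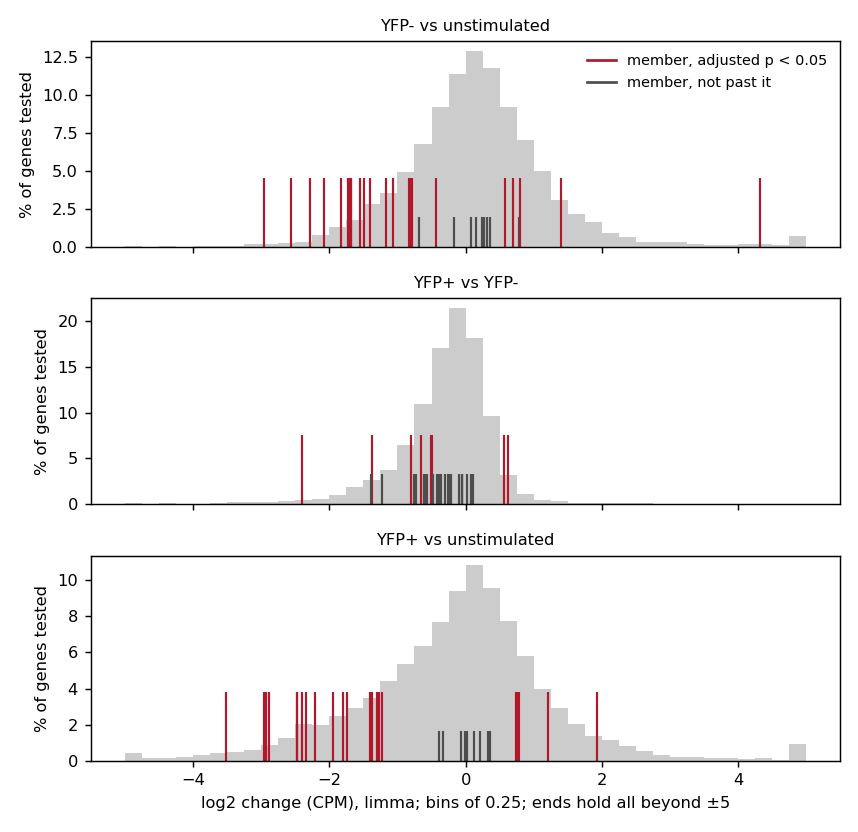
Distribution of log2 changes over the 12364 genes tested (grey, percent of genes per bin) in the 3 comparisons, with each of the 32 members as a line, long and red where it passed an adjusted p of 0.05 and short and grey where it did not. Against unstimulated cells 18 members passed on the lower side in either stimulated group; in YFP+ against YFP- the members' median is -0.41, beside -0.19 for all genes.

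Because 18 of the 32 members tested fell in each stimulated group, the members' promoters were read for the letters ACGTG and GCGTG, the core of the hypoxia response element, and for CACGTG, the E-box bound by MYC and related factors, on both strands; every CACGTG also contains ACGTG, which is then counted on each strand. Promoter windows of 300 bases (250 before to 50 after a start site) from RefSeq on GRCm38.p6 were found for 35 of the 36 members, in 52 windows, some of which overlap. ACGTG or GCGTG stood in 41 of the 52 member windows (78.8%) and in 43.8% of all 32851 windows. ACGTG alone stood in 46.2% of member windows against 19.6%, GCGTG in 55.8% against 32.4%, and CACGTG in 11.5% against 7.15%. By gene, 31 of 35 members had ACGTG or GCGTG in at least 1 window, against 46.7% of 27025 genes, which were not limited to genes tested here. Tpi1 and Gpi1, which both fell, were among the 4 without. Of the 17 members with a window that fell in YFP- cells, 15 had ACGTG or GCGTG, beside 31 of all 35 members. CACGTG stood in 1 of these 17, beside 6 of all 35, so neither was particular to members that fell. These matches describe the letters and show no binding.

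Windows are shown for Ldha, the member with the most matches and the enzyme at the branch to lactate, for Pgk1, a glycolytic enzyme with no E-box, for Pdk1, which fell most, and for Slc2a6, which rose most; capitals mark ACGTG or GCGTG on either strand (CACGT and CACGC being the other strand). They lie at chr7:46845554-46845853 (plus strand), chrX:106186850-106187149 (plus), chr2:71872974-71873273 (plus) and chr2:27027949-27028248 (minus). Each is written 5′ to 3′.
Ldha: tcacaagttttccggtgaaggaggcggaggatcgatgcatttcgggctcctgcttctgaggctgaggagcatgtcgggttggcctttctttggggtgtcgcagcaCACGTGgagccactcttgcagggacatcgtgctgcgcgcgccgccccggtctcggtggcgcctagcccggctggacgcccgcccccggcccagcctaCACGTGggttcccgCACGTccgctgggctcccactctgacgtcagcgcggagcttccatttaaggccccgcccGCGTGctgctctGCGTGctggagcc
Pgk1: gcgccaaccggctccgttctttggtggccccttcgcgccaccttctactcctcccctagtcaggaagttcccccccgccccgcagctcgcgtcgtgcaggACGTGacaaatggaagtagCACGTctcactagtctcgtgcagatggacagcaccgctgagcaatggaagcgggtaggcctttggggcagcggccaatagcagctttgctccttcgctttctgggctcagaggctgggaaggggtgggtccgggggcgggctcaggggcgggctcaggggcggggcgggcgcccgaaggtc
Pdk1: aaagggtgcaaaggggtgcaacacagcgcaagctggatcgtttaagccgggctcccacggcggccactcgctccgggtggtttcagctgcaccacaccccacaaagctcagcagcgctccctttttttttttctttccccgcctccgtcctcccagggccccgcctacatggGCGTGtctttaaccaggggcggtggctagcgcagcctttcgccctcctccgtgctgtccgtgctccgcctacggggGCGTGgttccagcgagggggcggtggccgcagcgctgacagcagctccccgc
Slc2a6: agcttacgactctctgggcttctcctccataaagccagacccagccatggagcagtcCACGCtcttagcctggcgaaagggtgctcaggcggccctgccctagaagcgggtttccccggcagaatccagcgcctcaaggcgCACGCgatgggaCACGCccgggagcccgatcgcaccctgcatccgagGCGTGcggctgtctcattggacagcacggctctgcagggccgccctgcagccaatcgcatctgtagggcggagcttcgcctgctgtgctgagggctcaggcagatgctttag
The Ldha window held ACGTG 5 times, 4 of them as both strands of 2 CACGTG, and GCGTG 2 times. Pgk1 had 2 ACGTG, Pdk1 2 GCGTG and Slc2a6 4 GCGTG, so such letters stood in promoters of members that fell and of the member that rose most.

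Among the transporters, which move glucose and lactate across the membrane, the members took opposite directions. Slc2a6 (ENSMUSG00000036067; GRCm38 chromosome 2, 27021363 to 27027998, minus strand), a glucose transporter family member found on lysosomes of macrophages, was measured at 7.29, 4.89, 3.41 and 4.22 CPM in unstimulated cells. It reached 128, 105, 72.1 and 87.0 CPM in YFP- cells and 25.3, 20.6, 12.2 and 17.0 in YFP+ cells. The 3 groups did not overlap, with YFP- highest and YFP+ between. It rose in YFP- (log2 change 4.33 ± 0.27 SE, 20.1-fold, limma adjusted p = 5.66e-08) and in YFP+ (1.93 ± 0.27, 3.8-fold, limma adjusted p = 2.68e-05), and was lower in YFP+ than in YFP- (-2.40 ± 0.27, 5.28-fold lower, limma adjusted p = 5.03e-05). All 3 calls were kept in all 15 alternative settings.

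Slc2a3, a high-affinity neuronal and leukocyte glucose transporter (GLUT3), went the other way. Its levels were 84.4, 93.4, 94.2 and 95.5 CPM in unstimulated, 60.4, 65.5, 43.3 and 47.3 in YFP- and 36.7, 39.2, 37.2 and 39.0 in YFP+ cells. The groups did not overlap at either step. It fell in YFP- (log2 change -0.78 ± 0.14 SE, limma adjusted p = 0.000326) and in YFP+ (-1.27, limma adjusted p = 2.46e-06). The further step from YFP- to YFP+ (-0.49 ± 0.14, limma adjusted p = 0.0193) kept its call in 5 of 15 settings. It was lost without label f2, m2 or m4 (limma adjusted p of 0.109, 0.130 and 0.0573), without YFP+ m3 and m4 (0.0630), and with each sample centred on its median (-0.23, adjusted p = 0.155).

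Slc2a1, the widely expressed glucose transporter GLUT1, was called in no comparison in any setting. It stood at 57.5, 55.9, 57.4 and 40.8 CPM in unstimulated cells and at 26.7 to 64.3 CPM in YFP- cells. In YFP+ cells it was 85.9 and 71.7 CPM in f2 and m2 but 21 and 20 in m3 and m4, a split wider than any distance between group means.

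Slc16a1, the monocarboxylate transporter MCT1 that carries lactate and pyruvate, was higher at each step: 8.24, 8.55, 9.39 and 6.32 CPM in unstimulated, 11.5, 13.2, 11.5 and 12.0 in YFP- and 16.2, 15.4, 22.2 and 21.2 in YFP+ cells. The 3 groups did not overlap. It rose in YFP- (0.58 ± 0.16, limma adjusted p = 0.00951) and in YFP+ over unstimulated cells (1.2 ± 0.16, 2.30-fold, limma adjusted p = 2.46e-05), the latter in every setting. The YFP- call held in 11 of 15 settings and was lost without label m4 (limma adjusted p = 0.0666), with median centring (0.0601), with rRNA-like features left out (0.0790) and with correction for GC content and length (0.36, 0.107). YFP+ exceeded YFP- by 0.63 ± 0.16 (limma adjusted p = 0.0148); that call was lost without label f2 (adjusted p = 0.05003), m3 (0.0795) or m4 (0.0703), and without YFP+ m3 and m4 (0.40, adjusted p = 0.167).

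Of the 10 members that act on hexoses up to the triose stage, 8 fell in YFP- and 8 fell in YFP+ cells relative to unstimulated cells, beside 20.9% and 33.3% of all genes, and none rose. Hk1 (chromosome 10, 62268855 to 62379908, minus strand), the broadly expressed hexokinase that traps glucose as glucose 6-phosphate, was at 70.6, 69.2, 80.6 and 76.2 CPM in unstimulated, 23.5, 32.5, 19.6 and 18.8 in YFP- and 17.4, 15.9, 13.4 and 12.1 in YFP+ cells. Its log2 level fell in YFP- (-1.68 ± 0.18, 3.21-fold lower, limma adjusted p = 5.72e-06) and in YFP+ (-2.34 ± 0.18, 5.08-fold lower, limma adjusted p = 1.07e-07). YFP+ lay below YFP- in all samples (-0.66, limma adjusted p = 0.0163), a call that held in 9 of 15 settings; without label m2 or m4 the adjusted p was 0.0769 and 0.0549, without YFP+ m3 and m4 it was 0.130, and with median centring the value was -0.40 (0.0541).

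Hk2, the inducible hexokinase that binds mitochondria, did not share this pattern. It was at 21.2, 26.7, 25.7 and 18.6 CPM in unstimulated, 18.9, 15.8, 13.4 and 20.5 in YFP- and 21.6, 24.6, 27.1 and 26.9 in YFP+ cells. Unstimulated samples overlapped both other groups, and every YFP+ sample lay above every YFP- sample. The fall in YFP- was small (-0.43 ± 0.17, limma adjusted p = 0.0426) and kept its call in 10 of 15 settings. It was lost without label f2 (limma adjusted p = 0.0547), m2 (0.241) or m3 (-0.26, 0.238), with a replicate block (0.0624) and with no filter (0.0965). The rise from YFP- to YFP+ (0.56 ± 0.17, 1.48-fold, limma adjusted p = 0.0277) also kept its call in 10 of 15 settings. It was lost without label m2 (limma adjusted p = 0.129), m3 (0.144) or m4 (0.0507), with no filter (0.0585) and without YFP+ m3 and m4 (0.45, 0.160). YFP+ against unstimulated did not pass (0.13, limma adjusted p = 0.528).

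Hk3, a hexokinase known from myeloid cells, was at 4.98, 3.08, 4.42 and 4.38 CPM in unstimulated, 2.26, 2.35, 1.94 and 2.81 in YFP- and 1.39, 1.22, 0.691 and 0.529 in YFP+ cells (17 to 68 reads). The 3 groups did not overlap. It fell in YFP- (-0.84 ± 0.30, limma adjusted p = 0.0303; without label f2 0.0946, without m3 0.123, with no filter 0.0646) and in YFP+ (-2.21 ± 0.30, limma adjusted p = 2.19e-05), and was lower in YFP+ than in YFP- (-1.37 ± 0.30, limma adjusted p = 0.00496). Without label m4 this last adjusted p was 0.0532, and without YFP+ m3 and m4 the value was -0.83 (0.0451). On the scale log2(CPM + 1) the 2 YFP+ values were -1.42 and -0.79. Exons of Hk3 overlap those of Unc5a on the other strand, whose level was 68.7% of that of Hk3, and whether reads were counted by strand is not given in the sources used here, so reads of the pair cannot be told apart.

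Gpi1, glucose-6-phosphate isomerase, fell at each step and did so in every setting. It was at 1526, 1469, 1392 and 1286 CPM in unstimulated, 484, 533, 385 and 384 in YFP- and 339, 305, 175 and 230 in YFP+ cells, with no overlap. The log2 changes were -1.68 ± 0.18 in YFP- (limma adjusted p = 8.19e-06), -2.48 ± 0.18 in YFP+ (9.66e-08) and -0.80 ± 0.18 between them (0.00726). Without YFP+ m3 and m4 the last was -0.46 (adjusted p = 0.0484).

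Phosphofructokinase commits sugar to glycolysis, and its 3 isoforms differed. Pfkl, the liver-type isoform, was at 210, 170, 152 and 85.8 CPM in unstimulated, 54.3, 51.3, 28.3 and 49.2 in YFP- and 41.5, 34.6, 7.15 and 12.6 in YFP+ cells. Both stimulated groups lay below all unstimulated samples, and YFP+ m3 and m4 lay far below YFP+ f2 and m2. It fell in YFP- (-1.72 ± 0.48, limma adjusted p = 0.00814) and in YFP+ (-2.95 ± 0.48, limma adjusted p = 0.000110; -1.95 without YFP+ m3 and m4, adjusted p = 7.5e-05). The difference between YFP+ and YFP- did not pass (-1.23 ± 0.48, limma adjusted p = 0.0836) and was -0.23 without those 2 samples.

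Pfkp, the platelet-type isoform, was at 190, 201, 183 and 141 CPM in unstimulated and 214, 350, 127 and 280 in YFP- cells, with overlap. In YFP+ cells f2 and m2 reached 383 and 299 CPM, above all unstimulated samples, and m3 and m4 were at 86.2 and 84.2, below all of them. Pfkp was called in no comparison with all samples; YFP+ against unstimulated was -0.06 ± 0.46 (limma adjusted p = 0.919), and 0.93 without YFP+ m3 and m4 (adjusted p = 0.0126).

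Pfkm, the muscle-type isoform, ran from 5.11 to 6.54 CPM in unstimulated cells, 2.81 to 5.37 in YFP- cells and 1.46 to 4.29 in YFP+ cells. It fell in YFP+ (-1.40 ± 0.32, limma adjusted p = 0.00184; -0.82 without YFP+ m3 and m4, 0.0229), while in YFP- the value was -0.68 (limma adjusted p = 0.0920). Senp1, on the other strand, overlaps its exons and was measured at 347% of its level, so reads of this pair cannot be told apart either.

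The aldolases and triose phosphate isomerase, which complete the split of the sugar, fell in every setting and in every label. Tpi1 (chromosome 6, 124810586 to 124814296, minus strand), triose phosphate isomerase, was at 1145, 1088, 1119 and 923 CPM in unstimulated, 198, 192, 180 and 156 in YFP- and 164, 156, 125 and 121 in YFP+ cells. Stimulated samples lay far below unstimulated ones and the 2 stimulated groups overlapped. The log2 change was -2.56 ± 0.13 in YFP- (5.90-fold lower, limma adjusted p = 1.29e-08) and -2.92 ± 0.13 in YFP+ (7.59-fold lower, limma adjusted p = 1.36e-09). Aldoa, the main aldolase, fell from 5418 to 5647 CPM in unstimulated cells to 1454 to 1957 in YFP- and 1249 to 1638 in YFP+ cells (log2 changes -1.70 and -1.95, limma adjusted p of 1.33e-07 and 1.29e-08). Aldoc, the brain-type aldolase, fell from 415 to 520 CPM to 62.7 to 113 and 41.9 to 81.3 (-2.29 and -2.89, limma adjusted p of 2.75e-06 and 1.16e-07).

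**Figure D4:**
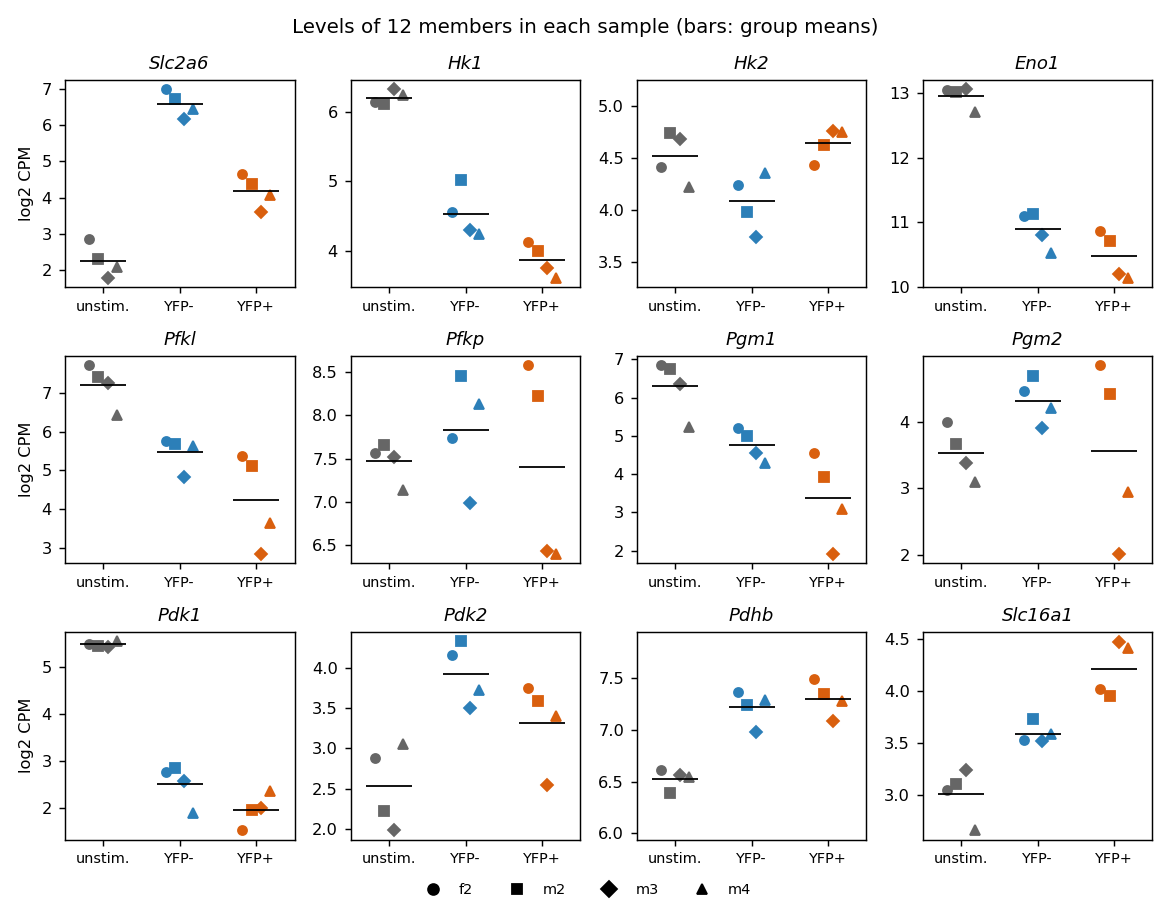
Log2 CPM of 12 members in each sample by group; symbols give the label and bars are group means, and vertical scales differ between panels. Slc2a6 peaks in YFP-, Hk1, Eno1, Pfkl, Pgm1 and Pdk1 are lower in both stimulated groups, and YFP+ m3 and m4 (diamond and triangle) fall well below f2 and m2 for Pfkl, Pfkp, Pgm1 and Pgm2.

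The PFKFB enzymes make and remove fructose 2,6-bisphosphate, an activator of phosphofructokinase. Pfkfb3, the isoform with the highest ratio of kinase to phosphatase activity, ran from 11.3 to 12.9 CPM in unstimulated cells, 10.5 to 18.0 in YFP- cells and 13.7 to 17.5 in YFP+ cells. All 4 YFP+ samples lay above all unstimulated ones, yet the difference did not pass (0.36 ± 0.17, limma adjusted p = 0.0912) and was called in 6 of 15 settings. Pfkfb2 had 6 to 29 reads and Pfkfb4 7 to 73 reads per sample. Exons of Pfkfb2 overlap those of Yod1 on the other strand, measured at 1337% of its level, so reads of that pair cannot be told apart. Pfkfb4 was at 0.892 to 2.25 CPM in unstimulated cells, 0.429 to 0.831 in YFP- cells and 0.218 to 0.479 in YFP+ cells and was not tested.

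The 6 members tested of the later steps, from glyceraldehyde 3-phosphate to pyruvate, all fell in both stimulated groups. None overlapped the unstimulated samples, and the falls were called in every one of the 15 settings. Of all genes tested, 20.9% fell in YFP- and 33.3% in YFP+, and 21.7% and 30.8% lay lower without overlap. Gapdh, glyceraldehyde-3-phosphate dehydrogenase and a common reference gene in expression assays, was at 6820, 6222, 6525 and 5732 CPM in unstimulated, 2612, 2898, 2335 and 1831 in YFP- and 2356, 2032, 1707 and 1348 in YFP+ cells. Gapdh fell in YFP- (-1.40 ± 0.17, 2.65-fold lower, limma adjusted p = 1.75e-05) and in YFP+ (-1.79 ± 0.17, 3.46-fold lower, limma adjusted p = 8.12e-07). Eno1 (chromosome 4, 150236721 to 150248879, plus strand), the main enolase, was at 8478, 8302, 8545 and 6723 CPM in unstimulated cells. It was at 2194, 2243, 1796 and 1472 CPM in YFP- and 1873, 1682, 1178 and 1127 in YFP+ cells, so the 2 stimulated groups overlapped. Its log2 changes were -2.07 ± 0.18 (limma adjusted p = 1.12e-06) and -2.48 ± 0.18 (7.06e-08).

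Pkm, pyruvate kinase, which makes pyruvate, was at 3848, 3741, 3726 and 1857 CPM in unstimulated, 1015, 1101, 885 and 645 in YFP- and 941, 884, 292 and 521 in YFP+ cells. Pkm fell in YFP- (-1.82 ± 0.34, limma adjusted p = 0.000615) and in YFP+ (-2.40 ± 0.34, limma adjusted p = 3.57e-05; -1.79 without YFP+ m3 and m4). The gene-level table does not separate its 2 splice forms.

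Pgk1 (chromosome X, 106187100 to 106203699), phosphoglycerate kinase, whose promoter window held ACGTG 2 times, fell less. It was at 1868, 1825, 1717 and 1574 CPM in unstimulated, 983, 1139, 1001 and 904 in YFP- and 882, 798, 569 and 626 in YFP+ cells, with no overlap. The log2 changes were -0.80 ± 0.14 (limma adjusted p = 0.000303) and -1.30 ± 0.14 (2.18e-06). The step from YFP- to YFP+ (-0.50 ± 0.14, limma adjusted p = 0.0175) kept its call in 7 of 15 settings. It was lost without label m2 (0.0769), m3 (0.0899) or m4 (0.0668), without YFP+ m3 and m4 (-0.26, 0.185) and with median centring (-0.24, 0.144).

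Pgam1, phosphoglycerate mutase, fell from 211 to 284 CPM in unstimulated cells to 80.6 to 99.3 in YFP- and 63.8 to 89.7 in YFP+ cells (-1.48 and -1.74, limma adjusted p of 2.55e-06 and 2.01e-07). Eno3, the muscle-type enolase, fell from 31.1 to 47.1 CPM to 14.8 to 20.3 and 12.0 to 21.7 (-1.16 and -1.22, limma adjusted p of 0.000206 and 7.92e-05). Eno2, the neuronal enolase, had 0 to 11 reads per sample and was not tested.

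Ldha (chromosome 7, 46841475 to 46855627, plus strand), which reduces pyruvate to lactate and whose promoter window held both letters, was at 3974, 4117, 4253 and 3116 CPM in unstimulated, 1859, 1998, 1772 and 1718 in YFP- and 1786, 1676, 1294 and 1263 in YFP+ cells. Stimulated samples all lay below unstimulated ones. It fell in YFP- (-1.07 ± 0.13, 2.09-fold lower, limma adjusted p = 2.52e-05) and in YFP+ (-1.37 ± 0.13, 2.58-fold lower, limma adjusted p = 1.13e-06), in all 15 settings. Ldhb, the heart-type subunit, had 6 to 13 reads in unstimulated cells, 13 to 50 in YFP- cells and 18 to 62 in YFP+ cells and was not tested. Per kb of exon, Ldha made up 99.86 to 99.99% of the pair.

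Pgm1, which links glucose 6-phosphate to glycogen and sugar nucleotides, and Pgm2, grouped with it here by name, differed from each other. Pgm1 (ENSMUSG00000025791, chromosome 4) was at 115, 108, 81.7 and 37.6 CPM in unstimulated, 36.7, 31.7, 23.3 and 19.4 in YFP- and 23.5, 15.3, 3.76 and 8.43 in YFP+ cells. Unstimulated m4 was low and lay just above the highest YFP- sample. Pgm1 fell in YFP- (-1.54 ± 0.49, limma adjusted p = 0.0171; without label m2 0.0715) and in YFP+ (-2.93 ± 0.49, limma adjusted p = 0.000144; -2.05 without YFP+ m3 and m4). Itgb3bp overlaps its exons on the other strand at 26.4% of its level. Pgm2 (ENSMUSG00000029171, chromosome 5) was at 15.9, 12.7, 10.4 and 8.54 CPM in unstimulated and 22.1, 25.6, 15.0 and 18.4 in YFP- cells, with slight overlap. In YFP+ cells it was at 28.7 and 21.2 CPM in f2 and m2 and at 4.03 and 7.65 in m3 and m4. No comparison of Pgm2 passed with all samples, and without YFP+ m3 and m4 it was higher in YFP+ than in unstimulated cells (1.09, limma adjusted p = 0.00190).

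At the entry of pyruvate into mitochondria, no member fell and 2 of 5 rose in each stimulated group, beside 30.2% (YFP-) and 27.5% (YFP+) of all genes; in YFP+ only 1 of the 2, Pdhb, did not overlap the unstimulated samples. Pdhb, the beta subunit of pyruvate dehydrogenase, was at 97.4, 84.1, 94.5 and 93.3 CPM in unstimulated, 165, 150, 126 and 156 in YFP- and 180, 163, 136 and 154 in YFP+ cells. All stimulated samples lay above all unstimulated ones. It rose by 0.69 ± 0.12 in YFP- (1.61-fold, limma adjusted p = 0.000353) and by 0.77 ± 0.12 in YFP+ (1.71-fold, limma adjusted p = 8.20e-05). With correction for GC content and length the YFP- value was 0.29 (adjusted p = 0.0504), and with quantile normalization 0.45.

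Dlat, the acetyltransferase core of the same complex, was at 24.9, 25.2, 26.7 and 14.8 CPM in unstimulated, 37.5, 53.7, 29.1 and 38.4 in YFP- and 53.2, 49.8, 22.9 and 32.2 in YFP+ cells, where YFP+ m3 overlapped the unstimulated samples. It rose in YFP- (0.79 ± 0.28, limma adjusted p = 0.0288) and in YFP+ (0.74 ± 0.28, limma adjusted p = 0.0328; 1.21 without YFP+ m3 and m4). Without label f2, m2 or m4 the adjusted p was 0.0546, 0.101 and 0.167 in YFP- and 0.133, 0.0984 and 0.132 in YFP+. Pdha1, the alpha subunit, ran from 32.6 to 44.0 CPM in unstimulated cells, 38.6 to 76.2 in YFP- cells and 33.3 to 80.9 in YFP+ cells and did not pass with all samples; without YFP+ m3 and m4 it was higher in YFP+ than in unstimulated cells (0.75, limma adjusted p = 0.0187). The mitochondrial pyruvate carrier subunits did not pass either. Mpc1 ran from 30.2 to 36.5, 35.9 to 42.9 and 33.8 to 40.6 CPM in the 3 groups, and Mpc2 from 50.8 to 62.4, 53.1 to 62.9 and 45.0 to 62.7. A pseudogene of Mpc1 was counted at 27.1% of its level, which leaves its own level uncertain.

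The kinases that switch off pyruvate dehydrogenase split. Pdk1 (chromosome 2, 71873224 to 71903858, plus strand) was at 44.9, 43.4, 43.1 and 46.6 CPM in unstimulated, 6.75, 7.17, 5.92 and 3.73 in YFP- and 2.88, 3.85, 3.98 and 5.10 in YFP+ cells. It had the tightest unstimulated values of the kinases, and the 2 stimulated groups overlapped. The gene fell in YFP- (-2.96 ± 0.21, 7.76-fold lower, limma adjusted p = 2.40e-07) and in YFP+ (-3.52 ± 0.21, 11.4-fold lower, limma adjusted p = 1.69e-08), the furthest of all members, in every setting. YFP+ against YFP- did not pass (-0.56 ± 0.21, limma adjusted p = 0.0773), and did without YFP+ m3 and m4 (-0.78, 0.0386).

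Pdk2 was at 7.34, 4.63, 3.94 and 8.32 CPM in unstimulated, 17.9, 20.2, 11.4 and 13.2 in YFP- and 13.4, 12.0, 5.83 and 10.6 in YFP+ cells. It rose in YFP- without overlap (1.40 ± 0.30, 2.64-fold, limma adjusted p = 0.00168), in every setting. In YFP+, where m3 lay among the unstimulated samples, it rose by 0.79 ± 0.30 (limma adjusted p = 0.0354), a call lost without label f2 (0.0917), m2 (0.187) or m4 (0.0511) and with rRNA-like features left out (0.0734). Pdk3 ran from 25.5 to 40.7 CPM in unstimulated cells, 33.3 to 46.4 in YFP- cells and 16.2 to 39.1 in YFP+ cells and did not pass.

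Within isoenzyme families, where levels were compared as CPM per kb of exon and without a test, the composition shifted along with these changes. Hk1 made up 60.4 to 67.5% of the hexokinases in unstimulated cells, 34.4 to 53.7% in YFP- cells and 23.4 to 33.8% in YFP+ cells, and Hk2 23.6 to 33.3%, 37.3 to 53.6% and 60.0 to 74.2%. Hk2 was thus the larger share in all 4 YFP+ samples and the smaller in all 4 unstimulated ones. With the longest transcript as the length, mean shares in YFP- cells were 58.5% for Hk1 and 33.6% for Hk2, against 43.9% and 45.9% here, so the order in YFP- depends on the length used. In YFP+ they were 41.4% and 55.0%, and in YFP+ f2 Hk1 was then the larger share (48.3% against 46.6%).

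Among the phosphofructokinases Pfkl went from 50.7 to 66.7% of the family to 21.7 to 32.0% in YFP- and 13.5 to 21.8% in YFP+, and Pfkp went from 30.1 to 41.6% to 62.8 to 73.7% and 72.9 to 81.0%. This order held within all 4 YFP+ samples, m3 and m4 included, although their Pfkp levels differed from those of f2 and m2. Pgm1 made up 79.6 to 88.3% of its pair with Pgm2, grouped by name, in unstimulated cells, 48.3 to 59.6% in YFP- cells and 39.0 to 49.4% in YFP+ cells. Pdk1 went from 24.4 to 32.3% of the 3 kinases to 2.64 to 4.38% and 2.03 to 5.88%, while Pdk3 was the largest share throughout, at 53.6 to 70.1%, 71.3 to 74.9% and 72.9 to 78.0%.

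Of the 3 glucose transporters, Slc2a6 took 3.49 to 7.49% in unstimulated cells, 54.4 to 63.9% in YFP- cells and 19.9 to 32.3% in YFP+ cells. Slc2a1 took 44.5 to 54.1%, 21.1 to 31.7% and 34.8 to 65.4%, with YFP+ f2 and m2 at 65.4 and 63.4% and m3 and m4 at 40.1 and 34.8%. Aldoa (92.2 to 97.1%) and Eno1 (95.8 to 98.6%) kept nearly all of their families in every sample.

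**Figure D5:**
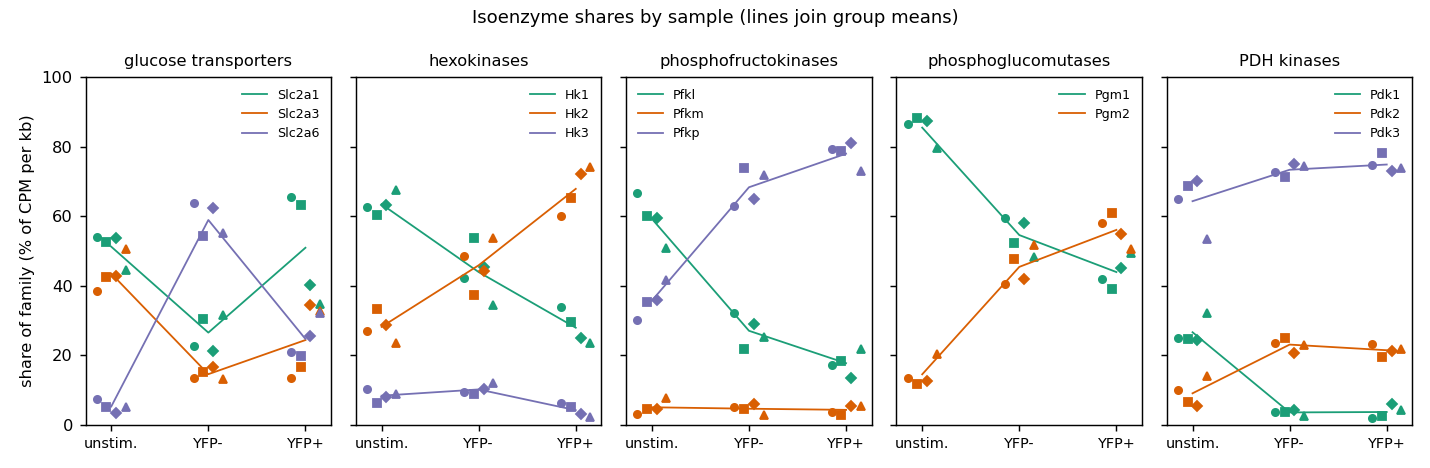
Share of each isoenzyme in the summed CPM per kb of its family (percent), by group; each symbol is 1 sample, its shape gives the label as in the other plots, and lines join group means. Hk2, Pfkp and Pgm2 take larger shares in both stimulated groups, Slc2a6 peaks in YFP- at 54.4 to 63.9%, and Pdk1 goes from 24.4 to 32.3% to at most 5.88%.

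Genes around the members did not all move with them. Of 40 further genes of glycolysis and pyruvate metabolism 28 were tested; 14 rose and 10 fell in YFP-, 13 rose and 12 fell in YFP+, and 2 rose and 7 fell in YFP+ against YFP-, with median log2 changes of 0.69, 0.55 and -0.13, beside 0.14, -0.03 and -0.19 for all genes. Of all genes, 30.2% rose and 20.9% fell in YFP-, 27.5% and 33.3% in YFP+, and 3.28% and 18.5% between the stimulated groups. Without YFP+ m3 and m4, 5 of the 28 rose and 3 fell in YFP+ against YFP-, beside 349 higher and 1593 lower of all 12364 genes. Slc16a3, the lactate exporter MCT4 typical of glycolytic cells, fell from a mean of 334 CPM in unstimulated cells to 26.4 in YFP- (-3.67 ± 0.34, limma adjusted p = 2.10e-06) and 10.4 in YFP+ cells (-5.11 ± 0.34, limma adjusted p = 3.81e-08; -4.46 without YFP+ m3 and m4), opposite to Slc16a1. Slc2a8, an intracellular glucose transporter, and Pygb, a glycogen phosphorylase, also fell in both (-1.30 and -2.57, and -0.87 and -1.5). Dld, the third component of the pyruvate dehydrogenase complex, rose by 2.39 in YFP- and 2.26 in YFP+ (limma adjusted p of 0.000209 and 0.000198; 3.15 in YFP+ without m3 and m4), where Pdhb and Dlat rose by less than 1. Adpgk, the ADP-dependent glucokinase, rose by 1.80 and 2.31, and Pgm3, a phosphoacetylglucosamine mutase, by 1.77 and 2.17 (2.88 in YFP+ without m3 and m4). Between the stimulated groups Gys1, muscle glycogen synthase, was higher in YFP+ (0.86, limma adjusted p = 0.00806).

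In the pentose phosphate pathway, which branches from glucose 6-phosphate, 1 of 8 genes rose and 2 fell in each stimulated group, beside 30.2% and 20.9% (YFP-) and 27.5% and 33.3% (YFP+) of all genes. Between YFP+ and YFP- 0 of the 8 were called by limma, beside 21.8% of all genes. Without m3 and m4, 2 rose in YFP+ against unstimulated cells. Without YFP+ m3 and m4, 3902 of all 12364 genes rose and 3816 fell in YFP+ against unstimulated cells. Rpe rose (1.09 and 0.95), and H6pd (-1.18 and -1.27) and Rpia (-1.02 and -1.11) fell. In the citric acid cycle, which takes up the acetyl-CoA, 9 of 17 genes rose and 3 fell in YFP-, beside 30.2% and 20.9% of all genes. In YFP+ 6 rose and 4 fell (8 and 4 without m3 and m4), beside 27.5% and 33.3% of all genes. Between YFP+ and YFP- 0 of the 17 were called by limma, beside 21.8% of all genes. Dlst, a component of the 2-oxoglutarate dehydrogenase complex, rose by 1.55 and 1.05 (1.87 in YFP+ without m3 and m4), and Mdh2, mitochondrial malate dehydrogenase, rose by 0.73 and 1.0. Mdh1, the cytosolic form (-0.59 and -0.61), Sdhd (-0.80 and -0.62) and Idh3g (-0.48 and -0.65) fell in both.

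Of 18 regulators of glycolytic genes 16 were tested; 3 rose and 6 fell in YFP-, 2 rose and 8 fell in YFP+, and 4 fell in YFP+ against YFP-, beside 30.2% and 20.9%, 27.5% and 33.3%, and 18.5% lower of all genes. Egln3, a prolyl hydroxylase that is itself a target of hypoxia-inducible factors, fell from a mean of 39.7 CPM to 3.33 and 1.61 (-3.58 and -4.64, limma adjusted p of 6.05e-08 and 2.35e-09). Egln1, the main oxygen-sensing prolyl hydroxylase, fell from 84.5 CPM to 16.3 and 13.5 (-2.38 and -2.66). Txnip, a glucose-induced inhibitor of glucose uptake, fell from 60.0 CPM to 35.3 and 11.1 and was lower in YFP+ than in YFP- (-1.61 ± 0.22, limma adjusted p = 0.000246). Myc, a transcription factor that drives many glycolytic genes, rose from 33.5 CPM to 166 in YFP- and 105 in YFP+ cells (2.28 and 1.51, limma adjusted p of 7.40e-05 and 0.00120). The part of Myc in the members' levels was not tested. Mlx, the partner of the glucose-sensing factors, rose by 0.81 and 0.99, and Arrdc4, a relative of Txnip, rose by 1.22 in YFP- and was lower in YFP+ than in YFP- cells (-0.93).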

How the data were processed

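RNA from 12 samples (3 groups of 4) was reverse transcribed from 10 ng with the SMARTer Ultra Low kit and read as pairs of 150 bases, per the labels' protocols; STAR 2.7.9a, featureCounts 2.0.3 (Subread) and GRCm38 are named in the submitters' processing notes. The annotation and the strand setting are not given in the sources used here. The values deposited by the authors are moderated log2 CPM, per the file headers, in 55774 lines, of which 287 repeats were dropped. All sample columns were matched to samples. Each value equals the log2 of reads plus a scaled prior of 0.5 over the library total (largest difference 5.15e-14), so reads were recovered for 100% of values; totals were 32.1 to 54.2 M reads. Floors of 3 reads reflect counting error alone.

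Groups follow the treatment and sort. The 12364 genes over log2 CPM 0 in 4 or more samples were fitted together in limma 3.58.1 (R 4.3.3; lmFit, contrasts, eBayes with trend) with 1 mean per group, and called at a Benjamini-Hochberg adjusted p under 0.05; other steps used Python 3.11.15, pandas 2.3.3 and matplotlib 3.10.9. On simulated counts of 12113 genes the step from YFP- to YFP+ recovered 88 of 100 genes changed by 1 on the log2 scale. It recovered 100 of 100 changed by 2, with 8 unchanged genes called. The simulation had a single spread setting for all genes and no split within YFP+. Its recovery therefore does not describe members such as Pfkl, with a standard error of 0.48 in that step. Isoenzyme shares used CPM per kb of merged GENCODE M21 exons (99.4% of identifiers matched), and promoters came from RefSeq. Members and lists were chosen with earlier results of these data known; all members are accounted for, and from each list at most 3 called genes per direction and comparison, with a mean log2 CPM of at least 2, were named by size, apart from some not reported here. The 15 alternatives were a replicate block, other filters, pseudocount, scalings and weights, each label left out and, added after seeing the data, YFP+ m3 and m4 left out and a GC and length correction.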

Additional observations from a re-analysis of the deposited data

Results flagged for a closer look

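In 6 of 108 groups of 4 samples (36 members in 3 groups), the lowest sample stood far from the other 3, with its gap to the nearest of them above Dixon's critical value as a part of the group's whole range; chance alone flags about 1 in 20 groups, here 5.4. Unstimulated m4 was that sample in 5 of the 6. For Pkm it was at 10.86 log2 CPM against 11.86 to 11.91 in the other unstimulated samples, a gap of 0.956 of the range. For Slc2a1 it was at 5.35 against 5.81 to 5.85 (0.916). For Eno1 it was at 12.71 against 13.02 to 13.06 (0.880), for Dlat at 3.89 against 4.64 to 4.74 (0.883) and for Pdk3 at 4.67 against 5.26 to 5.35 (0.867). Pfkl was low in YFP- m3, at 4.82 against 5.62 to 5.76 (0.849). Unstimulated m4 also had the highest share of rRNA-like reads in its group, 35.3%, and YFP- m3 in its own, 30.3%; their part in these values was not tested.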

How the results depend on the processing

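All 15 alternatives were run, over 1092 values of the 73 member results (of 96) that were called in at least 1 setting: 975 kept direction and call, 58 lost the call, 44 gained one and 15 reversed. Log2 changes of the 23 never called are not printed, and their changes of sign are not among the 15. Such changes occurred in YFP+ against YFP- for Slc2a1, Pfkp, Aldoa, Pkm and Pgm2, among others. In YFP- against unstimulated they occurred for Slc2a1 and Pdk3, among others. No called member turned direction; the call held in every setting for 17 of 23 in YFP- and 21 of 23 in YFP+ against unstimulated cells, but for 2 of 8 between YFP+ and YFP- cells. With the replicate block, calls numbered 22, 15 (2 higher, 13 lower) and 23 in YFP- against unstimulated, YFP+ against YFP- and YFP+ against unstimulated cells. These were 68.8%, 46.9% and 71.9% of the members, beside 54.0%, 25.1% and 62.9% of all genes. Same labels correlated at a mean of 0.03, 0.24 and 0.14 in that order. Between YFP+ and YFP- cells they correlated at 0.05 (f2), 0.35 (m2), 0.37 (m3) and 0.17 (m4). There m3 and m4 each matched their own label best in both directions, while f2 and m2 did not. Whether labels pair samples is not stated, so the block is given as an alternative to the main fit. Calls between YFP+ and YFP- numbered 5 with no filter, 5 with TMM scaling, 5 with voom weights, 14 with rRNA-like features left out, 4 without YFP+ m3 and m4, and 4 to 7 with 1 label left out, against 8. In the same order these were 13.9, 15.6, 15.6, 43.8, 12.5 and 12.5 to 21.9% of the members, against 25.0%. Of all genes the shares were 6.14, 21.8, 22.4, 25.2, 15.7 and 12.7 to 17.6%, against 21.8%. The members' median minus that of all genes was -0.75 with no filter in YFP- (main -0.92), -0.0013 without YFP+ m3 and m4 in YFP+ against YFP- (main -0.23), and -1.36 with quantile normalization, -1.02 without YFP+ m3 and m4 and -1.31 to -1.16 with 1 label left out in YFP+ against unstimulated (main -1.26). Among the 73 results, reversed values were all in YFP+ against unstimulated. All but Pfkp without YFP+ m3 and m4 missed the threshold. Hk2 (main 0.13) was -0.063 with rRNA-like features left out and -0.0062 to 0.21 with 1 label left out. Pfkp (main -0.06) was 0.062 with median centring, 0.068 with TMM scaling, 0.091 with voom and 0.26 corrected for GC and length. It was 0.93 without YFP+ m3 and m4 and -0.42 to 0.28 with 1 label left out. Pgm2 (main 0.02) was -0.17 with rRNA-like features left out, -0.079 corrected for GC and length and -0.26 to 0.48 with 1 label left out. Pdk3 (main -0.32) was 0.061 without YFP+ m3 and m4 and -0.49 to 0.0088 with 1 label left out. Among all genes, the share of calls that were higher in YFP+ than YFP- was 15.1%, and 50.2% with median centring, and in YFP- than unstimulated 59.1%, and 47.2% with rRNA-like features left out. With no filter all 36 members were fitted, the 4 under the filter included.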
